A study of Caenorhabditis elegans with 2 samples.

Results

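Chromatin immunoprecipitation and sequencing (ChIP-seq) was examined at the genes for translation initiation and release factors of *Caenorhabditis elegans*. These are the protein-coding genes of assembly WBcel235 whose names begin with eif-, ife-, ifg-, iff- or iftb-, together with egl-45, erfa-1, erfa-3 and abce-1. The rule gave 37 of the 19973 protein-coding genes on nuclear chromosomes and left out elongation factors. The 2 samples were biological replicates of 1 group, whole mid-stage embryos collected by bleaching (age 1.5 hours per the labels) from strain RW12279, in which CRISPR put TY1, EGFP and 3xFLAG tags on the zinc finger protein ZTF-23. All embryos of both samples carry the tagged allele st12279, and chromatin from all cell types of the embryo was pooled, so binding in some cells and weaker binding in all cells cannot be told apart. The tagged protein was precipitated with an anti-GFP antibody, no control library was analysed here, and the sources used here give no read depth. With 1 group there was no comparison between conditions, and with 2 replicates no difference between genes was tested.

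Initiation brings the small ribosomal subunit, the initiator tRNA and the mRNA together. The eIF4E proteins bind the mRNA cap and eIF4G joins them to eIF3, which sits on the small subunit. eIF2 delivers the initiator tRNA and is recharged with GTP by eIF2B, while eIF1 and eIF1A govern the search for the start codon. eIF5A acts on stalling ribosomes during elongation and at termination. The release factors eRF1 and eRF3 end translation at the stop codon, and ABCE1 splits the ribosome afterwards. Embryonic cells need these factors continuously, and several are encoded by paralogs that differ between germline and soma in worms.

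ZTF-23 peaks were found at the starts of 9 of the 37 factor genes, which encode 4 subunits of eIF3 (eif-3.B, eif-3.C, eif-3.D and eif-3.E), the cap-binding proteins IFE-2 and IFE-4, eIF1A, the eIF5A protein IFF-2 and the release factor eRF3. A gene was counted when the summit of a nuclear peak lay within 1000 bp of its annotated start; peaks came from the combined list that the authors called conservative. This held for 24.3% of the factor genes (exact Clopper-Pearson 95% interval 11.8 to 41.2%, counting error only) and for 7.20% of all protein-coding genes (1439 of 19973). None of the 3 eIF2 genes, the 5 eIF2B genes, eif-2A, eif-2D, ifg-1, eif-4A3 or eif-6 had such a peak. No test of the list was run, and the shares are descriptions.

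**Figure D1:**
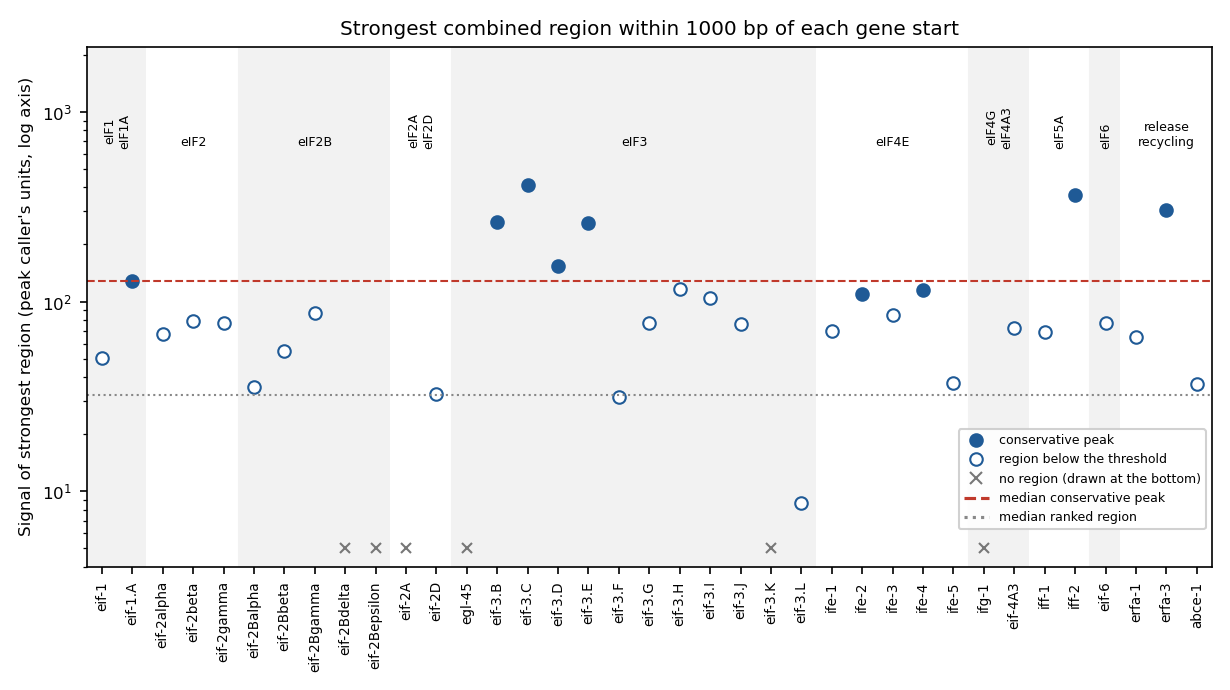
Signal of the strongest region of the combined ranked list within 1000 bp of each factor gene start (log axis, peak caller's units), with the genes grouped by complex. Filled points are the 9 genes with a conservative peak, open points regions below the threshold, crosses the 6 genes with no region; the dashed line is the median nuclear conservative peak (128) and the dotted line the median region of the ranked list (32.3).

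The eIF3 complex, the group with the most genes, had peaks at 4 of 12, and 1 of these, at eif-3.D, was nearer to another gene. The share was 2 of 5 for eIF4E, 1 of 2 for eIF5A and for eIF1 with eIF1A, and 1 of 3 for the release and recycling factors. The strongest peak at any factor gene was at eif-3.C, which encodes a scaffold subunit of the complex (chrI:9979828-9979992 on build ce11, signal 413, rank 123 of 2213 nuclear conservative peaks). The signal is the authors' peak caller's own value, with a scale that is not stated, and serves to rank regions within a list. In the replicates' own ranked lists the eif-3.C region had a signal of 188 in replicate 1 and 207 in replicate 2. The summit lay 237 bp upstream of the gene start, in the gap behind sys-1, which encodes a beta-catenin and is transcribed in the same direction.

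The peak at eif-3.B, the gene of the scaffold subunit eIF3b, had a signal of 262 (chrII:14794980-14795323, rank 308), with 115 in replicate 1 and 153 in replicate 2. At eif-3.E the signal was 261 (chrI:10642459-10642544, rank 315), with 140 and 134. These 2 genes were thus almost level in the combined list, while the order of the replicates differed between them. The eif-3.D gene encodes the subunit that in human cells can itself bind the cap of some mRNAs. Its peak had a signal of 154 (chrIII:8971613-8971956, rank 770), with 91.4 in replicate 1 and 62.6 in replicate 2. Replicate 1 was the higher one here, and the peak passed the threshold in the own list of replicate 1 only.

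The remaining eIF3 genes fell below the threshold of the conservative list, whose lowest reproducibility score is 830 on a scale that reaches 1000. The nearest were eif-3.H, with a region of signal 117 and score 733, and eif-3.I, with signal 105 and score 601. When the start of any annotated transcript was used in place of the gene start, eif-3.I also had a conservative peak. That peak was not the region just described. The conservative summit nearest to the eif-3.I gene start lay 2039 bp downstream of it, with signal 139 and score 1000. The eif-3.H region had a signal of 74.3 in replicate 1 and 41.9 in replicate 2; it was a peak in the own list of replicate 1 and in the other combined list. The regions at eif-3.G (77.2), eif-3.J (75.9), eif-3.F (31.3) and eif-3.L (8.67) were weaker, and that at eif-3.G was found in the ranked list of replicate 2 (66.6) with no overlapping region in replicate 1. The genes egl-45, which encodes the scaffold subunit eIF3a, and eif-3.K had no region at all within 1000 bp. Within this 1 complex the genes thus ranged from a peak among the 500 strongest to no region at all.

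Among the 5 eIF4E genes, ife-2 and ife-4 had peaks and ife-1, ife-3 and ife-5 did not. IFE-1 is the P granule form known from the germline, while IFE-2 and IFE-4 are known from the soma. The ife-4 peak (chrX:1103834-1104177) had a signal of 115 and a score of 1000, with 61.7 in replicate 1 and 57.3 in replicate 2. The ife-2 peak (chrX:382667-383010) had a signal of 110, with 50 and 53. Its score of 922 was the lowest of the 9, and it was absent from the other combined list. Both were modest peaks, at ranks 1426 and 1557, and neither passed in a replicate's own list. Those own lists were shorter, with 938 nuclear peaks for replicate 1 and 1210 for replicate 2, against 2213 in the conservative list.

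At the 3 other eIF4E genes the strongest region lay inside the gene, 856 bp downstream of the start at ife-1 (signal 70.1), 820 bp at ife-3 (85.3) and 856 bp at ife-5 (37.3). At ife-2 and ife-4 it lay 130 and 206 bp upstream. The conservative peak nearest to ife-3 had its summit 1052 bp upstream, just outside the limit, with signal 120 and score 986. B0348.10, ahead of ife-3 on the same strand with its start 911 bp away, had a peak of that signal within the limit. The ife-1 gene follows nud-1 on the same strand, and a peak of signal 111 lay at the start of nud-1.

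The eIF5A paralogs stood apart. IFF-1 is required in the germline and IFF-2 is the somatic form. The iff-2 peak (chrII:8561364-8561514) had a signal of 366 and rank 165, with 139 in replicate 1 and 221 in replicate 2. Its summit was the closest to a start of the 9, at 76 bp upstream. The strongest region at iff-1 lay inside the gene, 618 bp downstream of the start. It had a signal of 68.9 and a score of 176, with 19.6 in replicate 1 and 37.6 in replicate 2. Both replicates thus had the iff-2 region several times above this iff-1 region. Another iff-1 region, 131 bp upstream of the start, had a combined signal of 65.8 and a score of 264. The iff-2 gene also holds a snoRNA gene, F54C9.12, on its own strand, whose start is 671 bp downstream of the summit.

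Of the termination genes, only erfa-3 had a peak. It encodes the GTPase eRF3, and the peak (chrV:11113189-11113532) had a signal of 305 and rank 249, with 159 in replicate 1 and 154 in replicate 2. Its partner erfa-1, for the stop codon reader eRF1, had a region of signal 65.4 and score 255, with 25.1 and 30.1 in the replicates. The region at abce-1 had signal 36.9, close to the median of all ranked regions. In both replicates the region at erfa-3 was thus above that at erfa-1, whose product works with eRF3 in 1 release complex.

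At the start-codon factors, eif-1.A had a peak (chrIV:4810410-4810753, signal 128, rank 1112), with 56.1 in replicate 1 and 67.7 in replicate 2. It passed in the combined lists but in neither replicate's own list. The strongest region at eif-1 had signal 50.3 and score 118. The summit at eif-1.A was the farthest of the 9 from its start, at 352 bp upstream, so none of the 9 lay near the limit of 1000 bp.

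The DNA under 7 of these peaks is shown, and the leading word of 7 bases at ZTF-23 summits elsewhere occurs in 3 of them. Words of 8 bases were the main choice and words of 7 the alternative. The leading word of 8 bases occurs, among the windows shown, only in that of eif-3.D. The 7 were not chosen by either word. The windows of eif-3.C, which holds both words, and of eif-3.E are not shown. Each window is 101 bases around the summit, from RefSeq's WBcel235 sequence, 5′ to 3′ in the direction of the factor gene. Capitals mark the leading words described next, on either strand.
eif-3.B, chrII:14795102-14795202, plus strand: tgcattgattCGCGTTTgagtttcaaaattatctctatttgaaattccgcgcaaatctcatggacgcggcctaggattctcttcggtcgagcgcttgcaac
eif-3.D, chrIII:8971735-8971835, minus strand: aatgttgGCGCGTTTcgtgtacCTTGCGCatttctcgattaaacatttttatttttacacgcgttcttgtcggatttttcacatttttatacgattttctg
erfa-3, chrV:11113311-11113411, minus strand: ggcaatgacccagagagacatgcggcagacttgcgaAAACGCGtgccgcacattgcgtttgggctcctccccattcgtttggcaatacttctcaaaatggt
iff-2, chrII:8561393-8561493, minus strand: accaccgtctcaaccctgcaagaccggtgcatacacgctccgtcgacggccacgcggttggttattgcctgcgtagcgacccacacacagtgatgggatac
eif-1.A, chrIV:4810532-4810632, plus strand: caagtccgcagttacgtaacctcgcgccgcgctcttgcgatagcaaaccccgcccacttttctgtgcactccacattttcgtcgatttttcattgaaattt
ife-4, chrX:1103956-1104056, plus strand: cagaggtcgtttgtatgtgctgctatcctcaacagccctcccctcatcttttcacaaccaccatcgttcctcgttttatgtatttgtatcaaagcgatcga
ife-2, chrX:382789-382889, minus strand: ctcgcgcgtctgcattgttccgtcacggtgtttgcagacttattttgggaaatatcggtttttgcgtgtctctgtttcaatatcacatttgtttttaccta

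Words were learned on 1860 other conservative peaks, away from the factor genes and from tRNA, snoRNA and snRNA genes, by comparing the 101 bases at the summit with the flanks of the same width on both sides. The leading word of 8 bases was AAACGCGC, or GCGCGTTT on the other strand, found in 69 summit windows and on average 13 flanks. It occurred in the windows of eif-3.C and eif-3.D, 2 of the 9. It was in 6.43% of 1011 windows at other peaks near coding starts, which were among those it was learned on, and in 0.576% of 19973 windows of the same width centred 207 bp upstream of every protein-coding start. The next words, AAGTGCGC and CTAGGCCA, occurred in none of the 9.

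With words of 7 bases the leader was AAACGCG, which overlaps AAACGCGC, and 4 of the 9 windows held it on either strand, those of eif-3.B, eif-3.C, eif-3.D and erfa-3. It was in 9.10% of the 1011 windows and in 1.25% of the windows at all coding starts. Another, CTTGCGC, was in 2 of the 9, eif-3.C and eif-3.D. It was in 5.34% of the 1011 windows and in 0.471% of the windows at all coding starts. Of the 28 factor genes without a peak, 0 held AAACGCG in the window 207 bp upstream, a fixed place that need not be where a protein would bind. With windows reaching 100 bp to either side of that place, AAACGCGC was in 1 of the 28, eif-2Bbeta, and in 1.15% of the windows at all coding starts. These are matches of letters only. The GC content of the 9 windows ranged from 35.6% in eif-3.D to 60.4% in iff-2, with a median of 49.5%, the same as at all 1147 conservative peaks near coding starts (49.5%) and above the 33.7% of the windows at all coding starts.

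All 9 summits lay upstream of the factor gene's start, in DNA annotated as intergenic. Their distances ran from 76 to 352 bp with a median of 207 bp. Of the 1439 protein-coding genes with a conservative peak, 1203 (83.6%) had the strongest summit upstream, with a median position of 219 bp upstream, and 43.6% had it in the same range of 76 to 352 bp upstream. The factor genes thus shared the upstream side with most coding genes that had a peak.

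**Figure D2:**
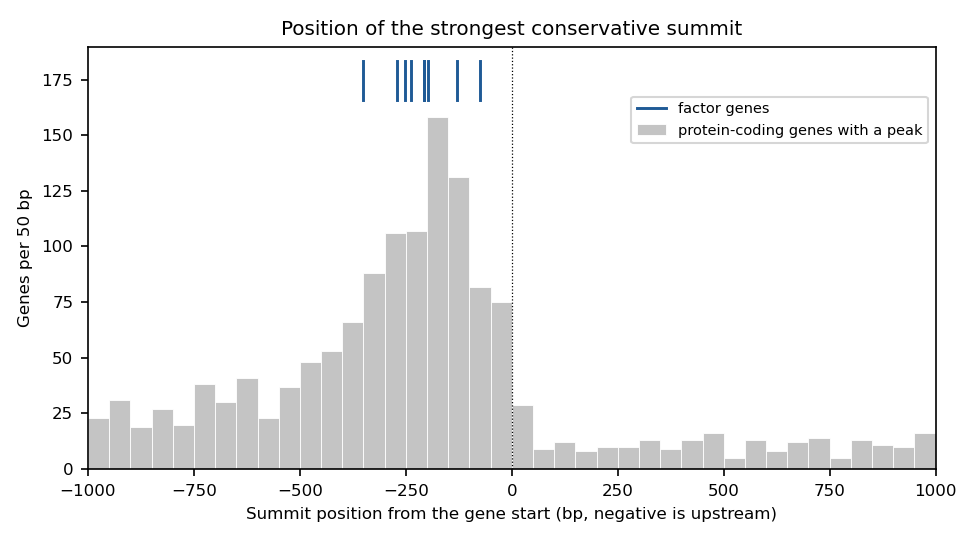
Position of the strongest conservative summit from the gene start for the 1439 protein-coding genes with a peak (grey bars, genes per 50 bp) and for the 9 factor genes (blue ticks). Negative values are upstream, and all 9 ticks lie between 352 and 76 bp upstream.

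A peak could be given to the factor gene alone at 4 of the 9. At eif-3.B, eif-3.C, ife-2 and ife-4 no other coding gene started within 1000 bp of the summit. The other 5 summits were also upstream of a coding gene on the opposite strand. R08D7.4 started 107 bp from the eif-3.D summit, closer than eif-3.D itself at 207 bp. The summit was upstream of both starts, so that peak cannot be given to either gene alone. The partners of erfa-3 (math-33, 546 bp from the summit), eif-3.E (B0511.17, 550 bp), eif-1.A (H06H21.37, 608 bp) and iff-2 (F54C9.14, 859 bp) were farther away than the factor gene. With each peak given to its nearest protein-coding start, 8 of the 37 factor genes had a peak, against 5.37% of all protein-coding genes. With starts of all gene classes it was again 8, against 4.17%, so no non-coding gene start stood nearer at any of these 8 peaks.

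**Figure D3:**
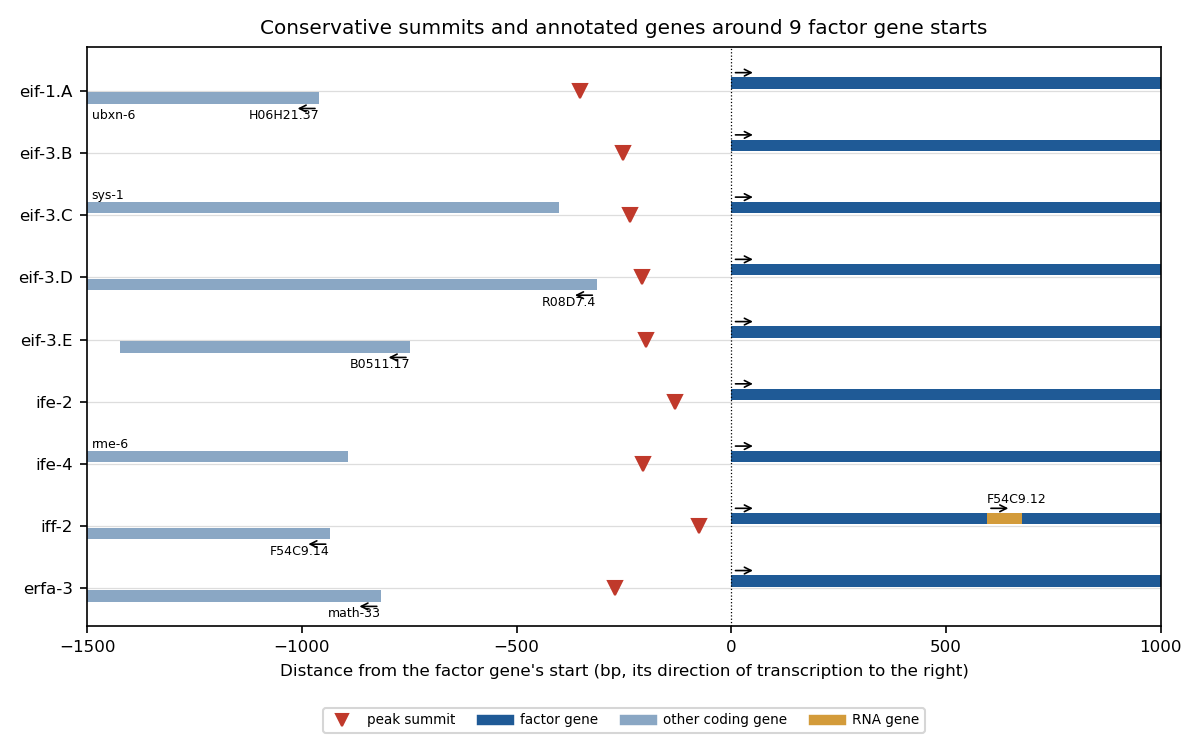
Annotated genes around the starts of the 9 factor genes with a conservative peak, drawn to scale with each factor gene's direction to the right (x axis, bp from its start). Red triangles are summits, dark bars the factor genes, light bars other coding genes (below the line when on the opposite strand) and the orange bar the snoRNA gene F54C9.12; the eif-3.D summit is nearest to R08D7.4.

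Of the 9 genes, 5 passed in the own lists of both replicates, eif-3.D in that of replicate 1 alone, and eif-1.A, ife-2 and ife-4 in neither. In the own list of replicate 1, 7 factor genes had a peak (against 3.57% of all protein-coding genes), and in that of replicate 2, 5 did (against 4.58%). The 5 in both own lists were eif-3.B, eif-3.C, eif-3.E, iff-2 and erfa-3, against 2.88% of all coding genes. These are also the 5 factor genes whose peaks were among the 500 strongest, against 2.23%. Replicate 1 added eif-3.D and eif-3.H. The other combined list also gave 9 factor genes (against 7.68%), with eif-3.H in the place of ife-2. The ratio of replicate 2 to replicate 1 signal ran from 0.685 at eif-3.D to 1.60 at iff-2 over the 9, with a median of 1.06. Over 2189 nuclear conservative peaks the median was 1.18, with 5th and 95th percentiles of 0.783 and 1.78, so eif-3.D lay below that range. The ratio carries any difference in depth between the replicates.

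**Figure D4:**
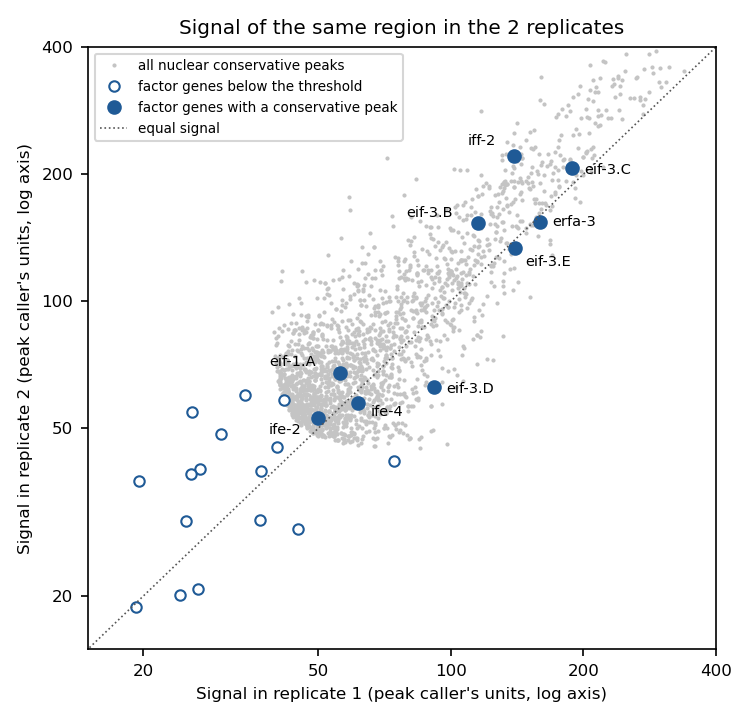
Signal of the same region in replicate 1 (x axis) and replicate 2 (y axis), both in the peak caller's units on log axes cropped at 400, for nuclear conservative peaks with a region in both (grey, the strongest lying outside the axes), the 9 factor genes with a conservative peak (filled) and factor genes below the threshold that have a region in both replicates (open). The dotted line marks equal signal; eif-3.D lies below it and iff-2 above it.

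Regions below the threshold were present at most of the other factor genes, as they were at most genes. A region of the combined ranked list, which holds 104781 nuclear regions with a median signal of 32.3, lay within 1000 bp of 31 of the 37 factor genes (83.8%) and of 73.0% of all protein-coding genes. Its strongest signal per gene had a median of 77.2 over these 31 and of 53.9 over the 14587 coding genes with a region. A region in this list thus did little to set a gene apart.

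The subunits of eIF2, which carries the initiator tRNA, had regions of like strength, with 67.1 at eif-2alpha, 79.3 at eif-2beta and 77.5 at eif-2gamma. In replicate 1 these regions had signals of 27, 30 and 25.9, and in replicate 2 of 40, 48.6 and 54.6. Replicate 2 was higher at all 3 genes, as it was at 76.1% of 2189 nuclear conservative peaks. Scores were from 298 to 373. Within eIF2B, the exchange factor of eIF2, the region at eif-2Bgamma had a signal of 86.8 and a score of 829, 790 bp upstream of the start. This was the score closest below the threshold of 830. The regions at eif-2Bbeta (54.9) and eif-2Balpha (35.3) had scores of 132 and 120.

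No region of the ranked list lay within 1000 bp of 6 factor genes, namely eif-2Bdelta, eif-2Bepsilon, eif-2A, egl-45, eif-3.K and ifg-1. The last encodes eIF4G, the scaffold of cap-dependent initiation. For ifg-1 the closest conservative summit was 31999 bp away, for egl-45 26063 bp and for eif-2Bepsilon 54695 bp. It was 10262 bp away for eif-2Bdelta, 28534 bp for eif-2A and 48499 bp for eif-3.K. Regions at eif-2D (32.7), eif-4A3 (72.3), whose product is part of the exon junction complex, and eif-6 (77.2), whose product keeps the ribosomal subunits apart, were below the threshold, with scores of 45, 520 and 113. Another eif-2D region, 135 bp upstream of the start, had a signal of 32 and a score of 151.

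Worm genes can be transcribed together from the promoter of the first gene of an operon, so chains of coding genes on the same strand with gaps under 500 bp were followed to their first gene. Of the 28 factor genes without a peak, 6 stood behind another gene in such a chain (21.4%, against 21.3% of all coding genes without a peak). One of them, ife-1, had a conservative peak at the first gene of the chain, nud-1, whose start is 1890 bp from that of ife-1; this held for 2.64% of all coding genes without a peak. Of the 6 factor genes with no ranked region, 0 stood behind another gene in a chain, against 19.8% of all coding genes with no ranked region. The 1 factor gene with a peak at its chain's first gene was 3.57% of the 28, near the 2.64% of all coding genes without a peak. Among the factor genes with a peak, eif-3.C stood behind sys-1 in such a chain, and sys-1 had no conservative peak at its own start.

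The factor genes with peaks were spread over all 6 nuclear chromosomes. Both factor genes on X had a peak, as did the only one on IV. There were 2 of 11 on I, 2 of 12 on II, 1 of 6 on III and 1 of 5 on V. Over all coding genes the share with a peak ran from 4.69% on V to 11.6% on III.

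Genes that work beside these factors were described from a list of 22 other initiation, cap-binding and ribosome rescue genes. Of these 22, 8 (36.4%) had a conservative peak, against 7.20% of all protein-coding genes, and 14 did not. The highest was drr-2, for an eIF4H-like protein (signal 17132, with 8170 in replicate 1 and 9002 in replicate 2), a peak shared with the divergent gene set-16. The larp-1 start lay 658 bp from a summit of signal 13971 that was nearer to wip-1, at 331 bp. No peak at the 37 factor genes came close to these values, the highest being 413. The peaks of ifet-1 (317), which encodes an eIF4E-binding translational repressor, and abcf-2 (260) had rps-1 and ant-1.1 as the nearest coding starts. The poly(A)-binding protein gene pab-2 (176), the helicase gene cgh-1 (149), gcn-1 (106), whose product activates the eIF2 kinase GCN-2, and mxt-1 (96.8) were themselves the nearest coding genes to their summits. The 14 without a peak included inf-1, which encodes eIF4A (strongest region 33.3), iffb-1, which encodes eIF5B (66.5), pab-1 (98) and the eIF2 kinase genes gcn-2 (88.1) and pek-1 (58.3).

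Set beside other genes of protein synthesis, by the same count, 45 of 81 ribosomal protein genes (55.6%), 4 of 6 elongation factor genes named eef- (66.7%) and 4 of 32 aminoacyl-tRNA synthetase genes (12.5%) had a conservative peak. The median signal of the called genes was 213 for the ribosomal proteins, 2396 for the elongation factors, 165 for the synthetases and 261 for the 9 factor genes. The highest was 14280 among ribosomal protein genes and 17955 among elongation factors. No test of these differences was run.

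**Figure D5:**
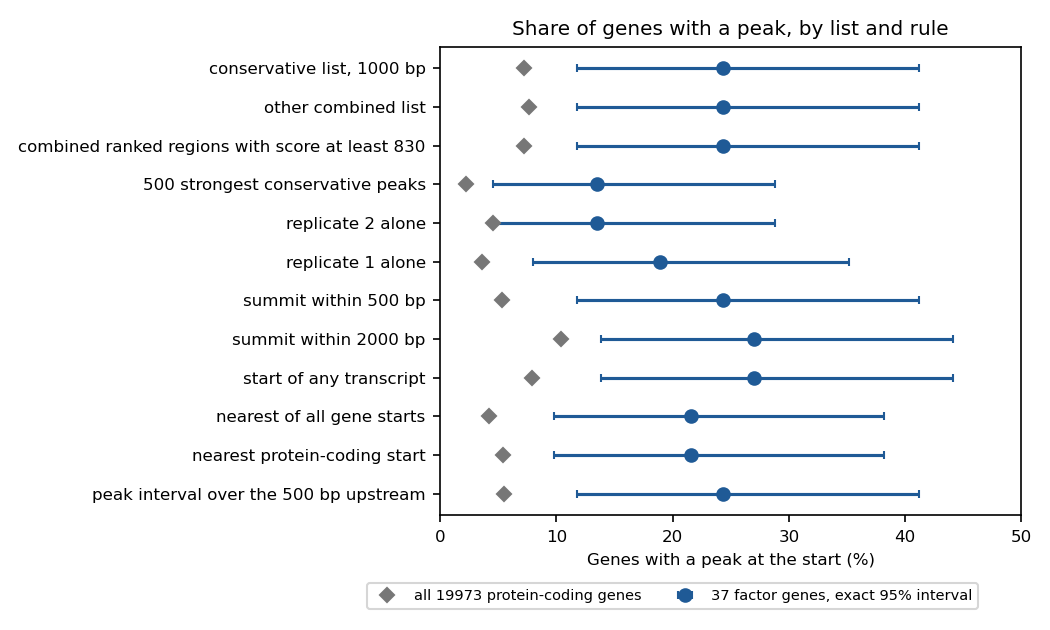
Share of genes with a peak at the start (x axis, percent) by peak list and assignment rule, for the 37 factor genes (blue, with exact 95% intervals that cover counting error only) and for all 19973 protein-coding genes (grey diamonds). The factor genes range from 13.5% to 27% and all genes from 2.23% to 10.4%.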

How the data were processed

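Samples were 2 biological replicates of ChIP-seq with chromatin sonicated to 200 to 800 bp, per the labels. The antibody field reads ztf-23, whereas the description says anti-GFP. The starting point was 8 peak lists deposited by the authors on build ce11, per the deposited file descriptions: for each replicate and for both combined, ranked regions and lists thresholded by IDR, the irreproducible discovery rate. Each holds a signal value, deposited by the authors on an unstated scale, and a score of up to 1000 that rises with reproducibility, deposited by the authors. Aligner, peak caller and depth are not given in the sources used here. In the combined ranked lists, 16 unnamed columns past the shared ones, whose sample is not stated, were not read. Ensembl release 115 (WBcel235, the same assembly) gave gene starts, and every nuclear region ended within its chromosome. Mitochondrial peaks were left out. For each gene the strongest summit within 1000 bp was taken; replicate signals come from the strongest overlapping region (at least 1 bp) of that replicate's ranked list.

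There is 1 group, so no test between groups was made. Words were ranked by the difference between summit and mean flank counts, divided by the square root of their sum plus 1. Counting and word ranking were checked on simulated data. Python 3.11.15, pandas 2.3.3 and scipy 1.17.1 were used. The factor genes and lists were chosen with earlier results of these data known. Named genes are all with a conservative peak, the strongest of each complex below the threshold and those with no region; further factor genes were named after their values were seen. Alternatives were other lists, single replicates, windows, starts and assignments.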

Additional observations from a re-analysis of the deposited data

How the results depend on the processing

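The count of 9 factor genes stayed between 8 and 10 with the other combined list, with ranked regions scoring 830 or more, and under windows of 500 and 2000 bp, any transcript start, both nearest-start rules and peak overlap with the 500 bp upstream. It was 5 with the 500 strongest peaks and 5 to 7 with 1 replicate left out. The peaks at eif-3.B, eif-3.C, eif-3.E, iff-2 and erfa-3 were kept under all 11 alternatives, those at eif-1.A and ife-4 under 8, and those at eif-3.D and ife-2 under 7. Summits upstream numbered 5 of 5 to 7 of 7 with 1 replicate left out, which follows from the smaller counts. Genes behind a chain head with a peak were 2 with gaps up to 1000 bp, ife-3 being added behind B0348.10. They were 0 to 1 with 1 replicate left out. The median rank of the factor gene peaks, as a percentage of the list from its strongest peak, was 14.2 in the conservative list, 13.2 in the other combined list and 23.6 to 24.8 with 1 replicate left out, where lists are shorter. Windows holding any of the leading 3 words were 2 of 9, against 14.9% of the 1011 windows at other peaks near coding starts. With words of 7 bases they were 4 of 9, against 16.9% of those windows. With windows of 100 bp to either side they were 3 of 9, against 20.1%. At that width 2 of the 28 factor genes without a peak held one, against 4.16% of the windows at all coding starts. When small-RNA peaks were included in the learning, the leading words were others. Then 0 of 9 held one, against 0.791% of the windows at other peaks. No paired analysis was possible because there is 1 group. Depth is unknown, so whether genes without a peak lack binding cannot be stated.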
